A study of Homo sapiens with 6 samples.

Results

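The melanocyte transcription factor gene MITF and 9 pigmentation genes (TYR, TYRP1, DCT, PMEL, MLANA, OCA2, SLC45A2, GPR143 and TRPM1) held 114 of the 152800 peaks in an atlas of accessible chromatin from A375 cells, an established human melanoma line. A peak was taken as belonging to a gene when its centre lay inside the GENCODE release 44 body of that gene, which applied to 73 peaks, or when it lay outside all protein-coding genes with that gene's start site as the nearest one, which applied to 41. All 114 peaks were 502 bp wide in hg38, and all 114 had enough reads to be tested. MITF held 44 of them, TYRP1 and OCA2 16 each, TRPM1 15, TYR 7, PMEL 5, GPR143 4, SLC45A2 3, and DCT and MLANA 2 each. Of these peaks, 8 also lay inside a neighbouring gene: 4 PMEL peaks inside CDK2, 2 MLANA peaks inside KIAA2026 and 2 GPR143 peaks inside TBL1X.

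ATAC-seq reads mark where the Tn5 transposase could cut into open DNA. The comparison was between 3 libraries from empty vector (EV) A375 cells and 3 from A375 cells that overexpress HMGB2 (HMGB2OE), a chromatin protein of the high mobility group. Both were stable lines made with a lentivirus, and the labels give no other allele or treatment. The reporting summary calls the 3 libraries of a condition technical replicates of 1 experiment, so the p-values below measure the spread between these libraries and not between independent cultures. The question is whether raised HMGB2 was accompanied by altered accessibility at the genes that define the differentiated, pigmented state of melanoma cells. The cells are bulk samples, in which a smaller share of cells with an open site and a less open site in every cell cannot be told apart. Peaks had been called against a melanocyte dataset as the control, so a site open in melanocytes had to exceed that signal to enter the atlas, and a gene without a peak has no level here.

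MITF is a basic helix-loop-helix leucine zipper factor that binds E-box words in the promoters of pigment genes and is often called the master regulator of the melanocyte lineage. Tyrosinase (TYR), TYRP1 and DCT are the enzymes that turn tyrosine into melanin inside the melanosome. PMEL forms the fibrils on which melanin is laid down, and MLANA helps PMEL mature. OCA2 and SLC45A2 are melanosomal membrane transporters, GPR143 is a receptor of the melanosome membrane, and TRPM1 is a cation channel whose gene is a known MITF target. MITF itself has several alternative first exons, each with a promoter of its own. The last of them gives the melanocyte isoform, MITF-M, whose promoter is driven by SOX10, PAX3, LEF1 and CREB.

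The sequences through which MITF is known to act on the 3 melanin enzymes are shown first, because none of these promoters held a peak. They run 5′ to 3′ on the coding strand up to the base before the annotated start of transcription (RefSeq, GRCh38.p14), and capitals mark the 6-base word CATGTG, the core of the M-box read by MITF, on either strand.
TYR promoter, chr11:89177625-89177874, plus strand: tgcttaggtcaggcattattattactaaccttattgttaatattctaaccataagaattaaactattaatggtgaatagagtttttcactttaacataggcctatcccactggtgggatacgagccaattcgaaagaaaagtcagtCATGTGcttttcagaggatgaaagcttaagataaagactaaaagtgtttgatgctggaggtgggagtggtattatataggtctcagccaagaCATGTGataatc
TYRP1 promoter, chr9:12693135-12693384, plus strand: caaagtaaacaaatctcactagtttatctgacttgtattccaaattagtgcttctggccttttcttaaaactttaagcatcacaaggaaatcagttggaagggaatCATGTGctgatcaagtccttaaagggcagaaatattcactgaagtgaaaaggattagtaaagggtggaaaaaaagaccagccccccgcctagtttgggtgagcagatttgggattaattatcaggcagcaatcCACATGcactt
DCT promoter, chr13:94479683-94479932, minus strand: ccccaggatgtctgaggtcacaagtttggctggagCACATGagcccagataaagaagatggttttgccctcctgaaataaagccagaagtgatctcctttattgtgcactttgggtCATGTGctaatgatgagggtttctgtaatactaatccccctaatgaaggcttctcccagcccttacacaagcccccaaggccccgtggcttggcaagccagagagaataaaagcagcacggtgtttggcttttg

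The TYR window held CATGTG 104 and 12 bp before the start, the TYRP1 window 144 and 11 bp before it, and the DCT window 215 and 134 bp before it. The word stood in 7 of the 12 RefSeq promoters of the member genes that could be matched, those of TYR, TYRP1, DCT, OCA2 and GPR143 and both of TRPM1, and in 11.1% of all 35116 promoters of the same length. None of the 12 held the related E-box CACGTG, which 7.26% of all promoters did. These counted windows extend past the start of transcription, whereas the printed ones stop before it. The promoter of MITF-M is shown for the cyclic AMP response word TGACGTCA, in capitals, which is read by CREB and was present in 1.85% of all promoters.
MITF promoter at the last start site, chr3:69936342-69936586, plus strand: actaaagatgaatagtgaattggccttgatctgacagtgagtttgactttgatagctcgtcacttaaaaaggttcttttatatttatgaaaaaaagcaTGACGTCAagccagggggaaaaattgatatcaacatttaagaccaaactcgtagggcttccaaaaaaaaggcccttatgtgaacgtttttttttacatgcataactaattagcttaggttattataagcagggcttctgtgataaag

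The 4 sites whose accessibility differed between the conditions at an adjusted p under 0.05 are shown by the middle 300 bases of their peaks, on the plus strand of hg38. Both strands were searched for 5 words, namely the E-box CACGTG, the M-box core CATGTG, the AP-1 word TGACTCA, the cyclic AMP response word TGACGTCA and the SOX word ACAAAG. Capitals mark the 1 match, to the SOX word in the first MITF peak, and the other 3 windows held none of the 5. ACAAAG was present in 26.6% of all tested peaks over a window of that length, and the other words in 0.602 to 24.9%.
MITF intron 1, first peak, chr3:69770123-69770422: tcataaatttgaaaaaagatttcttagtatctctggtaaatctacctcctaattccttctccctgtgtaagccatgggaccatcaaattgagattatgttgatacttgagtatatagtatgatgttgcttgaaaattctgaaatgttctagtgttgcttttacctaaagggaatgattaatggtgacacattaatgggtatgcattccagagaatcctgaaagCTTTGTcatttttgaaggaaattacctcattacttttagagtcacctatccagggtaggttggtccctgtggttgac
MITF intron 1, second peak, chr3:69771195-69771494: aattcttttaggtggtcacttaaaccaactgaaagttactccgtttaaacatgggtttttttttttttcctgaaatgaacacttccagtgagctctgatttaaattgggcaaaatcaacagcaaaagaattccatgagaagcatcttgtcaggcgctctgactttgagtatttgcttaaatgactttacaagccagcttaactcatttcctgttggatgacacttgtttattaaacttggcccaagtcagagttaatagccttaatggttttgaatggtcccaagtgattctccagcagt
DCT, past the gene end, chr13:94419431-94419730: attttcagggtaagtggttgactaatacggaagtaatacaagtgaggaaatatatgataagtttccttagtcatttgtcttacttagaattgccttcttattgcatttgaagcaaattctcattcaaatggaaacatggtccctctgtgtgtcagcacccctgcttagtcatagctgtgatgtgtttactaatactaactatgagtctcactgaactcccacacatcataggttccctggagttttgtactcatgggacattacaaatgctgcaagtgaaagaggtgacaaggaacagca
OCA2 intron 6, chr15:28021840-28022139: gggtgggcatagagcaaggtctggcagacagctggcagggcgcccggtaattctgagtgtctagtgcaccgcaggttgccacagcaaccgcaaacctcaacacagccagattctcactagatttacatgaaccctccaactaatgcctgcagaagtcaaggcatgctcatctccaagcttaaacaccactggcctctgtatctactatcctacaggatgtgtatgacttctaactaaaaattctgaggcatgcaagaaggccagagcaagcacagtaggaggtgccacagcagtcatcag

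Between 26910189 and 45645294 reads per library fell in peaks, and counts are given below after scaling to a common effective library size ("normalized counts"). Of 150117 peaks tested with edgeR's quasi-likelihood test, 2800 (1.87%) were called higher and 2166 (1.44%) lower in HMGB2OE cells, where a call needs an adjusted p under 0.05 and a change of at least 1.5-fold. Inside HMGB2 itself, counts at the peak from 173332680 to 173333181 on chromosome 4 were 50, 25 and 21.1 in EV and 102.0, 100.9 and 92.3 in HMGB2OE libraries. All HMGB2OE libraries lay above all EV libraries there, but reads from the inserted construct and from the gene cannot be told apart in its exons, and the peak at the HMGB2 promoter had a log2 fold change of −0.011 (adjusted p = 0.959, edgeR).

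Among the 114 peaks of MITF and the pigmentation genes, 1 was called higher and 2 were called lower, against 1.87% higher and 1.44% lower among all tested peaks. Calls in either direction came to 2.63% of the 114 and 3.31% of all peaks. Without the limit on the fold, 4 of the 114 (3.51%) had an adjusted p under 0.05, against 6.47% of all peaks. In 25 peaks (21.9%) the 3 HMGB2OE libraries did not overlap the 3 EV libraries, 11 above and 14 below, against 25.1% of all peaks in either direction. The share at an unadjusted p under 0.05 was 21.1% against 20.9%. The median log2 fold change of the 114 was −0.031, with 53 above 0 and 61 below, and that of all peaks was −0.0049. The members lay between −0.75 and 0.70, with 5th and 95th percentiles of −0.51 and 0.52 beside −0.50 and 0.54 for all peaks. The shares called or passing among the members were thus near or below those of all peaks, and the calls stood at single sites. The split of the calls was 1 higher and 1 lower with scaling by library size only, and 2 higher and 1 lower with GC-content offsets.

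**Figure D1:**
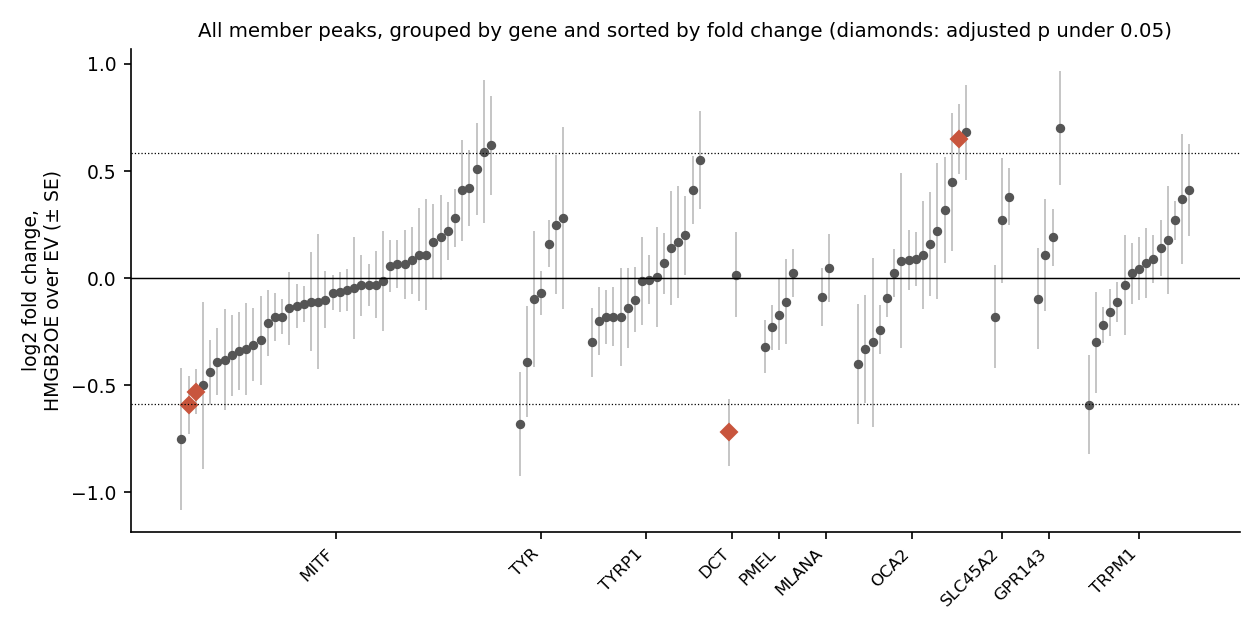
Log2 fold change of HMGB2OE over EV (vertical axis) with its standard error for each of the 114 peaks, grouped by gene and sorted within each gene. Diamonds mark the 4 peaks with an adjusted p under 0.05 and dotted lines the 1.5-fold limit. The 114 values run from −0.75 to 0.70, 53 above 0 and 61 below.

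In EV cells the peaks near the start sites of the member genes had very unequal levels. Of 19962 protein-coding genes, 68.6% had a peak centred within 1 kb of the gene start, with a median of 698 normalized counts, and among the 10 members 4 had one. MITF stood at 1325 ± 111 (SD, n = 3), higher than 80.9% of promoter peaks. PMEL stood at 3797 ± 349 at the start of its longest transcript, higher than 99.9%, but that peak lies inside RAB5B and is not counted among the 114. At its canonical start PMEL had 501 ± 24.7, higher than 37.3% of promoter peaks, in a peak that lies nearest to the start of CDK2. GPR143 had 139 ± 8.18 at a start site inside SHROOM2 (13.6th percentile), in a peak also not counted among the 114, and had no peak within 1 kb of its canonical start. SLC45A2 had 55.4 ± 3.44, in the lowest 4.0%. The PMEL and GPR143 peaks at the gene starts were assigned to RAB5B and SHROOM2, so their levels cannot be credited to PMEL or GPR143 alone. At the gene starts, in the order PMEL, MITF, GPR143 and SLC45A2, the EV libraries of one peak did not overlap those of the next. With PMEL taken at its canonical start, its EV libraries all lay below those of MITF and above those of GPR143. When all peaks within 1 kb of any start site of a gene were averaged, MITF came to 520 and PMEL to 2149. The PMEL mean includes the peak inside RAB5B. Copy number of these regions in A375 cells was not measured, so it is part of each level.

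The melanin enzymes TYR, TYRP1 and DCT, together with MLANA, OCA2 and TRPM1, had no peak within 1 kb of their start sites. From the gene start the nearest peak was 9.33 kb away for TYR, 3.55 kb for TYRP1, 43.9 kb for DCT, 4.54 kb for MLANA, 2.16 kb for OCA2 and 3.22 kb for TRPM1. From the canonical start it was 5.78 kb for TYRP1, where the printed promoter ends, and 3.44 kb for TRPM1. No level can be given for these promoters, and whether they were closed in A375 cells or open at or below the melanocyte control cannot be told from the atlas. None of the 4 promoter peaks at gene starts passed the test between the conditions, with 0 at an unadjusted p under 0.05 in edgeR and 0 by DESeq2. On the log2 scale the PMEL peak inside RAB5B differed by −0.023 (standard error 0.0744, adjusted p = 0.902 in edgeR), GPR143 by −0.073 (0.146, adjusted p = 0.83) and SLC45A2 by −0.18 (0.241, adjusted p = 0.729). At the canonical PMEL start the difference was −0.23, with an unadjusted p of 0.0351 and an adjusted p of 0.197 in edgeR. At the SLC45A2 promoter the EV libraries had 58.4, 51.6 and 56.2 and the HMGB2OE libraries 45.9, 40.9 and 60.8 normalized counts. The groups overlapped there.

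**Figure D2:**
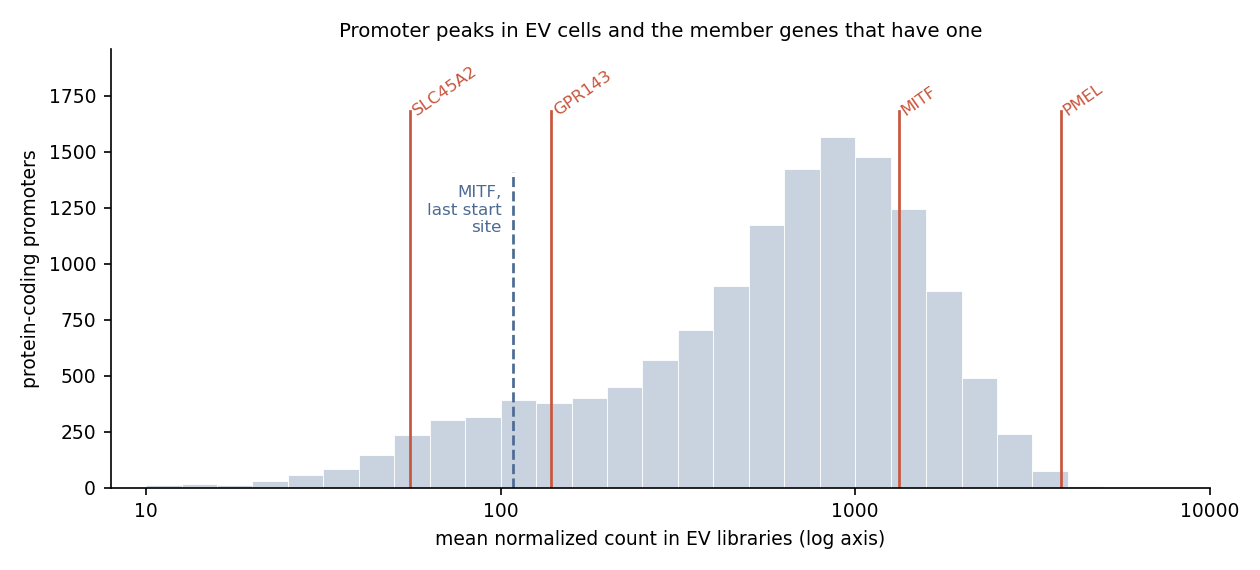
Number of protein-coding promoters (vertical axis) by their mean normalized count in the 3 EV libraries (horizontal log axis). Solid lines mark the 4 member genes with a peak at the gene start, SLC45A2 (55.4), GPR143 (139), MITF (1325) and PMEL (3797), and the dashed line marks the last start site of MITF (108), far below the first. The PMEL line is the peak inside RAB5B and the GPR143 line the peak inside SHROOM2. The peak at the canonical PMEL start (501) is not marked.

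The SLC45A2 promoter peak was the single member peak with more than 1 CACGTG, and it is shown for that reason, chosen after its letters were seen. The 300 bases at its upstream end are given on the plus strand of hg38, opposite to the gene, with the E-box, the M-box core and the SOX word in capitals on either strand. CACGTG stood there 2 times and CATGTG 5 times, in a stretch of CA repeats.
SLC45A2 promoter peak, chr5:33984735-33985034: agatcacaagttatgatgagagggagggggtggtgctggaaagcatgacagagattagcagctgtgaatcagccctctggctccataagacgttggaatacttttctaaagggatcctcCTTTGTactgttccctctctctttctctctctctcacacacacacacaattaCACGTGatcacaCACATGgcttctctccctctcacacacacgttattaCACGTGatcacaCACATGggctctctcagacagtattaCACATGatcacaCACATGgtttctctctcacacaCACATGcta
Over the whole peaks, CATGTG was found in 32 of the 114 (28.1%; all tested peaks 27%), CACGTG in 5 (4.39%; 6.85%), TGACTCA in 28 (24.6%; 28.0%), TGACGTCA in 2 (1.75%; 0.758%) and ACAAAG in 50 (43.9%; 37.3%). A match of letters is no evidence of binding.

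MITF (ENSG00000187098.18) spans 229 kb on the plus strand of chromosome 3, from 69739456 to 69968336. Its protein-coding transcripts begin at 6 sites, which were followed separately. At the first site, that of the broadly used isoform A, EV libraries had 1286.9, 1449.8 and 1236.9 normalized counts and HMGB2OE libraries 1264.0, 1325.4 and 1204.6. The conditions overlapped, and the log2 difference was −0.068 (standard error 0.0806, adjusted p = 0.685 in edgeR). The last site, of MITF-M, had 114, 111.0 and 99.5 in EV and 80.8, 97.6 and 83.3 in HMGB2OE libraries. All HMGB2OE libraries were below all EV libraries there, but the difference (−0.31, standard error 0.169, adjusted p = 0.308) did not pass the test. Sites 3 and 4 share a peak at 129 ± 17.1 (SD, n = 3) in EV and 132 ± 23.0 in HMGB2OE cells. No peak lay within 1 kb of site 2 or site 5, whose nearest peaks were 4060 and 7076 bp away.

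The first start site was thus far more accessible than the MITF-M promoter in A375 cells. The ratio of the 2 peaks was 11.3, 13.1 and 12.4 in the EV libraries and 15.7, 13.6 and 14.5 in the HMGB2OE libraries, or 12.3 ± 0.897 and 14.6 ± 1.04 (SD, n = 3). The HMGB2OE ratios all lay above the EV ratios, and their difference was not tested. The MITF-M peak was higher than 10.5% of promoter peaks in EV cells, and the first peak higher than 80.9%.

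The sites of MITF that passed the test lie next to each other in intron 1, 30.8 and 31.9 kb past the first start. The stronger one, from 69770022 to 69770523, had 461.4, 465.5 and 472.7 normalized counts in EV and 343.4, 339.5 and 281.4 in HMGB2OE libraries. The EV libraries lay within a narrow band, well above every HMGB2OE library, and the site fell by 0.53 on the log2 scale (standard error 0.106, adjusted p = 0.00217 in edgeR), under the 1.5-fold limit. Over 16 settings of the fit this value lay between −0.58 and −0.40, and it was −0.40 with GC-content offsets (adjusted p = 0.0178 in edgeR). The second, from 69771094 to 69771595, had 180.7, 198.7 and 210.6 against 138.6, 127.6 and 126.1. Again no libraries overlapped, and it fell by 0.59 (standard error 0.135, adjusted p = 0.00721), which is just past the fold limit. Its adjusted p stayed under 0.05 under all 16 settings of the fit that were run, but its fold was below the limit in 7 of them, such as −0.56 with GC-content offsets and −0.54 without EV replicate 3. The nearest strongly accessible neighbour, chosen after its values were seen, from 69775727 to 69776228, had 1195 ± 60.8 in EV and 1100 ± 102 in HMGB2OE cells (−0.12, adjusted p = 0.442).

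**Figure D3:**
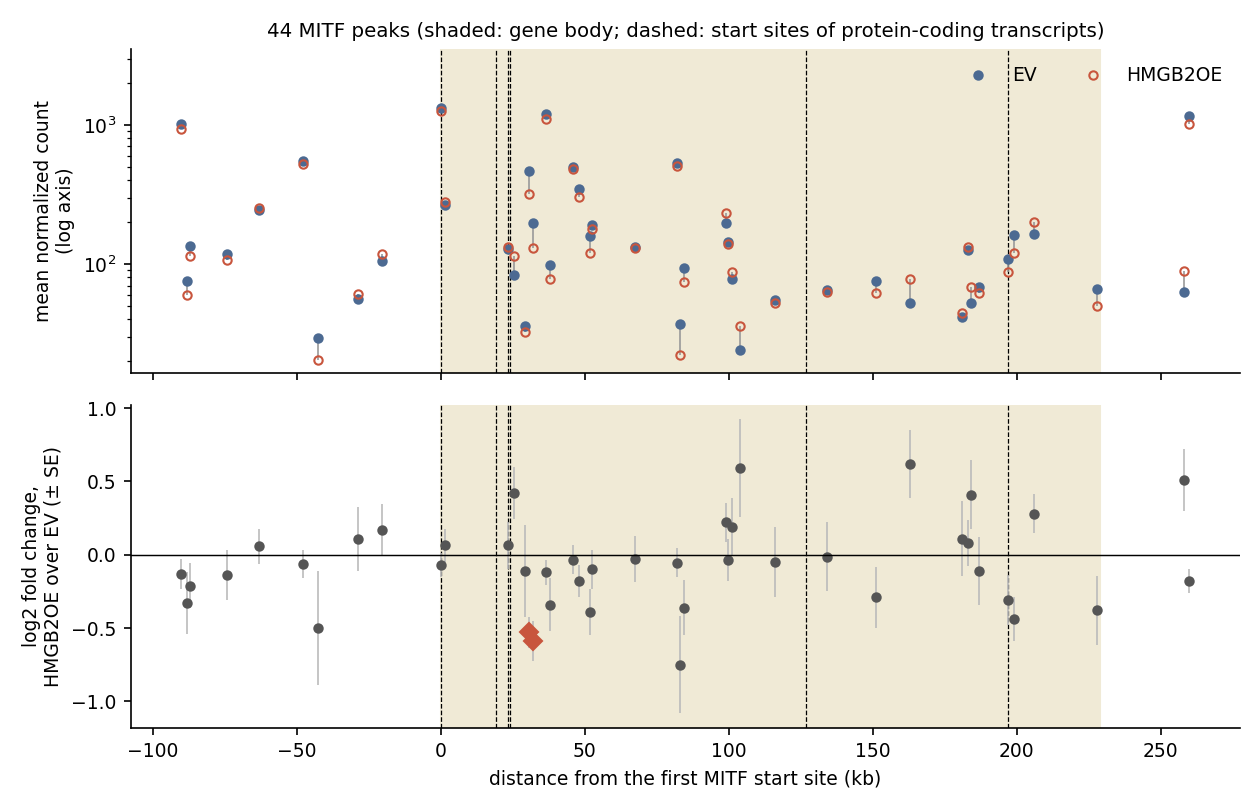
Upper panel, mean normalized count (log axis) of the 44 MITF peaks in EV and HMGB2OE cells against distance from the first start site in kb; lower panel, log2 fold change with its standard error. Shading is the gene body, dashed lines are start sites, and the 2 diamonds near 31 kb are the sites in intron 1 that passed the test.

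Elsewhere in MITF no peak passed, and more values lay below 0 than above. Of the 19 other peaks in intron 1, 14 had a log2 fold change below 0 and 5 above, with a median of −0.048. Of the 42 MITF peaks without the passing sites, 27 were below 0 and 15 above, while 49.2% of all tested peaks were above 0. These peaks share the same libraries, so they are not independent, and the split was not tested. All HMGB2OE libraries lay below EV in 7 of the 42 and above EV in 3 (23.8% in either direction, beside 25.1% of all tested peaks). The largest change in size was at a weak peak in intron 1 from 69822402 to 69822903, with 33.4, 32.7 and 45.6 in EV and 24.7, 20 and 21.4 in HMGB2OE libraries (−0.75, standard error 0.33, adjusted p = 0.182). In intron 2, the peak from 69902315 to 69902816 had 75, 40.4 and 41.0 against 77.4, 76.7 and 81.1 (0.62, adjusted p = 0.108). EV replicate 1 was close to the HMGB2OE libraries there, and with GC-content offsets this peak had an adjusted p of 0.0437 (0.74), so it is named although chosen after its values were seen. Past the gene end, a strong peak from 69999425 to 69999926 lies nearest to the start of SAMMSON, a long non-coding RNA of melanoma cells that is often co-amplified with MITF. Chosen after its values were seen, it had 1167.4, 1142.6 and 1145.6 in EV and 1094.9, 935.8 and 1023.3 in HMGB2OE libraries (−0.18, adjusted p = 0.202).

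Of the melanin enzymes, only the DCT locus held a called peak. It lies 17.2 kb past the end of DCT (ENSG00000080166.16) on chromosome 13, from 94419330 to 94419831, and 60.1 kb from the gene's start. EV libraries had 232.1, 234.0 and 176.7 normalized counts and HMGB2OE libraries 169.2, 107.6 and 112.6. HMGB2OE replicate 1 came close to EV replicate 3, with no overlap between the conditions. The site fell by 0.72 (standard error 0.158, adjusted p = 0.00542 in edgeR) and was called lower under all 16 settings, with log2 fold changes between −0.96 and −0.59. The other DCT peak, 0.991 kb past the gene end, had 75.3 ± 3.51 (SD, n = 3) in EV and 75.7 ± 15.8 in HMGB2OE cells, and none lay inside the gene.

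No peak of TYR or TYRP1 passed by edgeR or DESeq2, and 1 of 7 and 2 of 16 had an unadjusted p under 0.05 in edgeR, beside 20.9% of all tested peaks. TYR, the rate-limiting enzyme, had its strongest peak 9.33 kb upstream of the start, at 457.2, 622.9 and 532.4 in EV and 527.0, 512.1 and 506.6 in HMGB2OE libraries (−0.069, adjusted p = 0.758 in edgeR). The conditions overlapped. Its largest difference was 14.9 kb past the gene end, from 61.2, 63.7 and 72.6 in EV to 51.0, 39.2 and 31.5 in HMGB2OE libraries (−0.68, standard error 0.241, adjusted p = 0.0878), where the nearest start of any gene is that of NOX4. The 5 peaks inside TYRP1 had 43.7 to 169 normalized counts in EV cells, and its strongest peak lay 356 kb upstream at 307 ± 21.5 (SD, n = 3) in EV and 305 ± 28.0 in HMGB2OE cells. The TYRP1 peak with the largest fold, 146 kb upstream, had 66.7, 46.5 and 48.0 against 61.2, 74.2 and 99.1, with overlap (0.55, adjusted p = 0.155).

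The 5 PMEL peaks had log2 fold changes of −0.32 to 0.025, and none passed the test by edgeR or DESeq2. Of the 5, 2 had an unadjusted p under 0.05 in edgeR, beside 20.9% of all tested peaks. The strongest, from 55966557 to 55967058 on chromosome 12, is centred 765 bp before the start of the canonical PMEL transcript and lies nearest to the start of CDK2, a cyclin-dependent kinase and MITF target. It had 515.6, 515.4 and 472.7 in EV and 416.5, 488.8 and 370.4 in HMGB2OE libraries (−0.23, adjusted p = 0.197 in edgeR), with the highest HMGB2OE library above the lowest EV library. The PMEL peak from 55970694 to 55971195 had 240.4, 258.1 and 268.0 against 192.1, 234.4 and 188.0 (−0.32, standard error 0.124, adjusted p = 0.126), without overlap. MLANA had a peak in intron 2 at 158 ± 7.99 (SD, n = 3) in EV and 149 ± 2.89 in HMGB2OE cells and another in an exon at 125 ± 24.9 and 130 ± 3.86.

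OCA2, which regulates the pH of the melanosome, held the single peak called higher. It lies in intron 6 on chromosome 15, from 28021739 to 28022240, 77.3 kb from the start. EV libraries had 104.2, 83.5 and 97.1 normalized counts and HMGB2OE libraries 151.3, 123.4 and 171.1. All HMGB2OE libraries lay above all EV libraries, and the site rose by 0.65 on the log2 scale (standard error 0.164, adjusted p = 0.014 in edgeR). The call was lost without EV replicate 2 (0.56, adjusted p = 0.0904), without HMGB2OE replicate 1 (0.63, adjusted p = 0.0613) and without HMGB2OE replicate 3 (0.55, adjusted p = 0.0783). Under the replicate block with GC-content offsets the site kept an adjusted p of 0.0128, but its fold (0.58) missed the limit, so it was called in 12 of the 16 settings. The strongest OCA2 peak, in intron 23 from 27844177 to 27844678, had 1028.4, 1171.8 and 1205.3 against 1208.8, 971.7 and 1012.1 (−0.094, adjusted p = 0.593). That site, one of the most accessible of the 114, overlapped fully between the conditions. An intergenic peak 189 kb past the gene end had the largest OCA2 fold, at 48.6, 44.7 and 41.0 against 74.8, 67.6 and 73.2 (0.68, standard error 0.22, adjusted p = 0.0585).

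**Figure D4:**
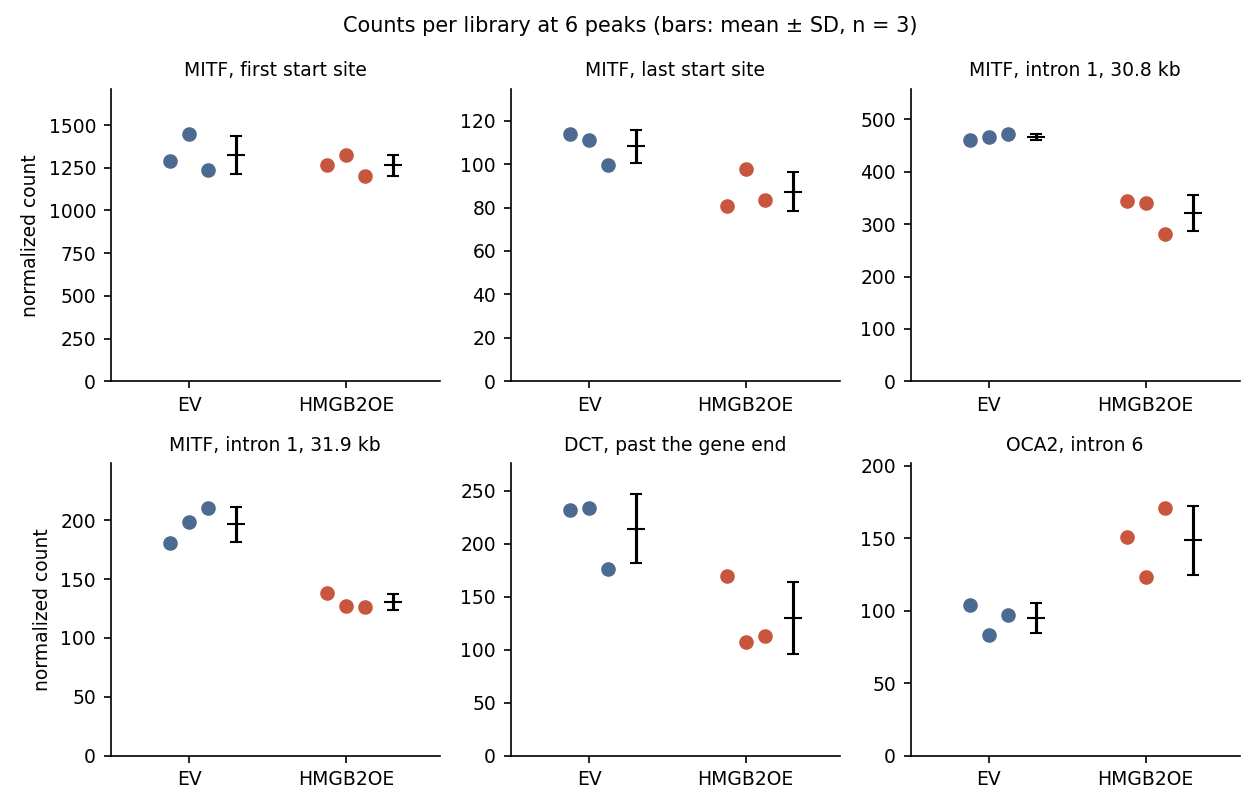
Normalized counts of each of the 3 EV and 3 HMGB2OE libraries (points) with mean and SD (bars) at 6 peaks, each on its own vertical axis from 0. At the sites in MITF intron 1 and past DCT all HMGB2OE points lie below all EV points, at the OCA2 intron 6 site all lie above, and at the first MITF start site (1325 ± 111 and 1265 ± 60.4) the conditions overlap.

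SLC45A2, GPR143 and TRPM1 held no peak with an adjusted p under 0.05 by edgeR or DESeq2, and 1, 1 and 3 of their 3, 4 and 15 peaks had an unadjusted p under 0.05 in edgeR. Over all tested peaks that share was 20.9%. In SLC45A2 the strongest peak, in intron 2, had 147.3, 143.7 and 146.3 in EV and 199.8, 183.5 and 184.6 in HMGB2OE libraries (0.38, standard error 0.132, adjusted p = 0.0808 in edgeR). The HMGB2OE libraries all stood above the EV libraries. In GPR143 a weak peak in intron 8 had 45.9, 29.3 and 33.9 against 72.3, 49.2 and 51.8 (0.70, standard error 0.266, adjusted p = 0.117), also without overlap, while its strongest peak, in intron 4, had 255.7, 306.3 and 238.7 against 349.4, 326.1 and 237.5 (0.19, adjusted p = 0.439), with overlap. TRPM1 had its strongest peak 54.6 kb upstream, where the EV libraries with 892.2, 939.5 and 839.0 all exceeded the HMGB2OE libraries with 797.3, 755.7 and 744.1 (−0.22, adjusted p = 0.122). That peak is 114 kb from the canonical TRPM1 start and lies nearest to the start of the long non-coding RNA LINC02352. The largest TRPM1 fold was 3.22 kb upstream of the start, at 68.1, 89.5 and 64.4 against 39.1, 45.9 and 66.4, with overlap (−0.59, adjusted p = 0.134).

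When the counts of all peaks of a gene were summed and tested over 18012 genes, DCT alone of the 10 had an adjusted p under 0.05, against 9.23% of all genes. Its sums were 315.8, 299.5 and 246.0 in EV and 233.2, 203.1 and 186.9 in HMGB2OE libraries, and they rest mostly on the distal peak. DCT fell by 0.46 on the log2 scale (standard error 0.129, adjusted p = 0.0325 in edgeR), but the adjusted p was 0.103 without EV replicate 1, 0.143 without EV replicate 2, 0.0723 without HMGB2OE replicate 2 and 0.106 without HMGB2OE replicate 3. MITF summed to 11025, 10894 and 10205 in EV and 10290, 10615 and 9695 in HMGB2OE libraries, which overlapped (−0.070, standard error 0.0432, adjusted p = 0.33). PMEL had −0.14 (adjusted p = 0.155), and 4 of the 5 peaks in its sum also lie inside CDK2. SLC45A2 had 0.28 (adjusted p = 0.121). GPR143 had 0.22 (adjusted p = 0.192), and the sums of TYR, TYRP1, MLANA, OCA2 and TRPM1 lay between −0.00058 and 0.029.

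The genes around MITF in its pathway were described by the same calls. The 18 genes that feed into MITF or act on its promoter held 356 tested peaks, with 12 (3.37%) higher and 6 (1.69%) lower, beside 1.87% and 1.44% of all tested peaks. The calls fell in 12 of the genes, of which 5 are named, by most calls and then by lowest p. KIT, the stem cell factor receptor that melanoblasts need, had 2 higher peaks. The first, 70.8 kb from its start, had 165.4, 222.0 and 234.0 in EV and 391.0, 370.3 and 398.5 in HMGB2OE libraries (0.89, standard error 0.122, adjusted p = 4.56e-05 in edgeR), and the summed counts of KIT rose by 0.27 (adjusted p = 0.00042). LEF1, a Wnt effector at the MITF-M promoter, had 2 higher peaks. TFAP2A had 2 higher and 1 lower, ZEB2 1 higher and 2 lower, and the endothelin receptor gene EDNRA 1 lower. On summed counts 3 of the 18 genes, KIT among them, had an adjusted p under 0.05 in edgeR, beside 9.23% of all genes. Over all tested peaks, 20.9% had an unadjusted p under 0.05 in edgeR in either direction. The MITF relatives TFEB, TFE3 and TFEC held 35 tested peaks, none called higher by edgeR or DESeq2 (2 were higher at an unadjusted p under 0.05 in edgeR) and 1 (2.86%) called lower, beside 1.87% and 1.44% of all tested peaks. That peak, in TFEC, had 314.1, 363.1 and 323.0 in EV and 199.8, 166.0 and 154.2 in HMGB2OE libraries (−0.94, standard error 0.124, adjusted p = 2.8e-05 in edgeR). On summed counts TFEC fell by 0.19 (adjusted p = 0.01 in edgeR), TFEB rose by 0.18 (adjusted p = 0.0358) and TFE3 had −0.024 (adjusted p = 0.769). Thus 2 of these 3 genes passed on summed counts, beside 9.23% of all genes.

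The 32 genes of melanosome assembly and transport had 257 tested peaks, 4 (1.56%) higher and 2 (0.778%) lower, both shares below the 1.87% and 1.44% of all tested peaks. They fell in 6 genes, 5 of which are named. SLC24A5, a melanosomal ion exchanger, had the steepest, with 26.4, 17.2 and 21.1 in EV and 117.3, 69.2 and 61.9 in HMGB2OE libraries (1.98, standard error 0.285, adjusted p = 7.67e-05 in edgeR). It lies 250 kb from the SLC24A5 start and was the weakest in EV cells of the peaks named here from that list. MREG and GPNMB had 1 higher peak each, and MLPH and SLC7A11 had 1 lower peak each. On summed counts 4 of the 31 genes of this list with a tested peak had an adjusted p under 0.05, beside 9.23% of all genes. Of the 5 named, MREG (0.28, adjusted p = 0.000559 in edgeR) and SLC24A5 (0.23, adjusted p = 0.0129) passed, and GPNMB, MLPH and SLC7A11 did not. The 15 other MITF targets held 244 tested peaks, 6 (2.46%) higher and 5 (2.05%) lower, beside 1.87% and 1.44% of all tested peaks, in 6 genes of which 5 are named. BCL2A1, an anti-apoptotic gene, had its called peak 0.067 kb from its start, at 259.9, 290.8 and 235.2 in EV and 142.8, 172.7 and 152.0 in HMGB2OE libraries (−0.75, standard error 0.129, adjusted p = 0.000542). The libraries did not overlap. MET, the hepatocyte growth factor receptor, had 2 lower peaks, SEMA6A 2 higher, DLC1 1 in each direction, and PPARGC1A, a regulator of mitochondrial genes, 2 higher and 1 lower.

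The 17 neighbours of the member genes had 277 tested peaks, 12 (4.33%) higher and 2 (0.722%) lower, beside 1.87% and 1.44% of all tested peaks, in 6 genes of which 5 are named. FOXP1, on the same chromosome as MITF, held 5 of the higher peaks in 34 tested and none lower, and its summed counts rose by 0.20 (standard error 0.049, adjusted p = 0.0156 in edgeR). It was the 1 gene to pass on summed counts of the 15 neighbours with a tested peak, beside 9.23% of all genes. Those 5 peaks lie between positions 71247565 and 71543064, whereas MITF ends at 69968336. ATP10A, on the chromosome of OCA2 and TRPM1, held 4 higher in 57. Its called peaks lie between positions 25695987 and 25802293, whereas OCA2 runs from 27754875 to 28099315 and TRPM1 from 31001065 to 31161160. The called peaks of FOXP1 and ATP10A are thus not adjacent to a member gene. GPC6 had 2 higher peaks, NOX4 1 higher and LURAP1L 1 lower.

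Promoters of marker genes were used to check the cells. Of 10 melanocyte lineage markers 6 had a promoter peak, from SOX10 at 103 ± 26.5 (859 ± 23.5 at its canonical start) to PMEL at 3797 ± 349 normalized counts (SD, n = 3, EV). That PMEL peak is the one inside RAB5B, and the canonical PMEL start had 501 ± 24.7. All 6 markers of undifferentiated melanoma had one, from SOX9 at 253 ± 40.0 to JUN at 3171 ± 282. The summed promoter counts of the lineage markers ranged from 7948 to 8937 in EV and from 8062 to 8692 in HMGB2OE libraries, and those of the undifferentiated markers from 6011 to 6869 and from 6016 to 6393. The RAB5B peak is the largest term of the lineage sum, so that sum rests in large part on it and does not rank the lists. At the gene starts, no promoter of either list was called by edgeR or DESeq2, and 0 had an unadjusted p under 0.05. The peak at the canonical PMEL start had an unadjusted p of 0.0351 in edgeR (adjusted p = 0.197). Keratinocyte markers had a peak in 2 of 4 genes, summing to 150 to 224 in EV and 163 to 194 in HMGB2OE libraries, and fibroblast markers in 2 of 4, summing to 140 to 163 and 127 to 139. Of 4 leukocyte markers LYZ alone had a peak, at 170 to 220 in EV and 176 to 206 in HMGB2OE libraries, and none of the 3 endothelial markers had one.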

How the data were processed

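ATAC-seq libraries from A375 cells, 3 with an empty vector (EV) and 3 overexpressing HMGB2 (HMGB2OE), were compared. The authors trimmed reads (Trim Galore 0.6.7, cutadapt 4.0, per the submitters' notes), used Bowtie 2 for alignment and Picard for deduplication, identified peaks by MACS2 relative to a melanocyte dataset, merged summits into an atlas of fixed-width hg38 peaks and deposited raw read counts per peak made with featureCounts. Whether read ends were shifted is not given in the sources used here. The table held 0 columns of other samples.

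Peaks were assigned with GENCODE release 44. Counts were filtered (filterByExpr), scaled by TMM and tested with edgeR 4.0.16 (quasi-likelihood, R 4.3.3, limma 3.58.1), two-sided, with Benjamini-Hochberg adjustment over all 150117 tested peaks. Summed counts per protein-coding gene were fitted in the same way over 18012 genes. A fold change is HMGB2OE over EV. DESeq2 1.42.0, other scalings, filters and fold limits, a replicate block and leaving out each library served as alternatives. The scripts were tested on simulated data. Total counts of 26910189 to 45645294 per library set the precision.

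Named peaks were those with an adjusted p under 0.05, the most accessible and the most changed peak of each gene, the peaks at start sites and, from each pathway list, called peaks of up to 5 genes with the most calls. Ties in the number of calls were broken by lowest p. The members and lists were chosen with earlier results of these data known.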

Additional observations from a re-analysis of the deposited data

How the results depend on the processing

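The lower site past DCT was called under all 16 settings of the fit, while the counts of member peaks rest on few peaks. Over all peaks, leaving out each library gave 1821 to 2978 called higher and 1552 to 2237 lower. With scaling by library size only, 1 peak was called lower and 2 had an adjusted p under 0.05 and were higher. With a loess trend removed, 2 were higher at that adjusted p, and with GC-content offsets 2 were called higher, 1 lower and 2 passed as higher. Assigning every peak to its nearest start site gave 3 passing as higher. Leaving out each library in turn gave 0 to 3 called higher, 1 to 2 called lower, 0 to 3 passing as higher, 3 to 4 passing as lower, 0 to 1 genes passing on summed counts and a median log2 fold change of −0.047 to 0.0094. The mean EV level at the MITF start became 520 and at the PMEL start 2149, with the peak inside RAB5B included, when all peaks near any start site were averaged.

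The libraries share only a replicate number: deviations of same-numbered libraries from their condition means correlated at −0.0884, 0.191 and 0.128, and EV replicate 1 correlated best with HMGB2OE replicate 3 (0.158). With the replicate block, 3192 of all peaks were called higher and 2383 lower, against 2800 and 2166 without it. Among the members 1 peak was called higher and 2 lower, with a median of −0.037, under the block, and the block with GC-content offsets gave 1 called lower and 3 passing as higher. Under that last setting the OCA2 intron 6 call was lost (0.58) and the 1 peak called higher was that of MITF intron 2 (0.75).

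Values near 0 changed sign, all without passing a test. The MLANA sum was −0.0039 by library size only, −0.030 with the loess trend, −0.0077 with GC-content offsets and −0.0048 with the block and these offsets, and the TYRP1 sum was 0.0048 with the loess trend. The peak at the PMEL start inside RAB5B had 0.044 with the loess trend, and the strongest TYRP1 peak 0.014 by library size only. Without 1 library, sums ranged from −0.023 to 0.065 for TYR, from −0.037 to 0.051 for TYRP1, from −0.062 to 0.092 for MLANA, from −0.0049 to 0.027 for TRPM1 and from −0.014 to 0.056 for OCA2. Peaks then ranged from −0.12 to 0.0046 at the first MITF start, from −0.046 to 0.19 at MITF site 3, from −0.082 to 0.046 in RAB5B, from −0.12 to 0.014 in SHROOM2, from −0.17 to 0.056 upstream of TYR and from −0.050 to 0.069 upstream of TYRP1.

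At these depths the median standard error of a member peak was 0.170 on the log2 scale, so small changes at weak peaks were not detectable.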

Other observations

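Besides the peak in MITF intron 2 already described, 4 member peaks had an adjusted p under 0.05 only under settings other than the one reported, and they were chosen after their values were seen. In MITF intron 3, past the MITF-M start site, the peak at chr3:69937803-69938304 had 187.6, 166.1 and 133.4 normalized counts in EV and 120.7, 127.6 and 109.2 in HMGB2OE libraries, without overlap. Its log2 fold change was −0.44 (standard error 0.151, adjusted p = 0.08 in edgeR), and the adjusted p was 0.0466 with GC-content offsets and 0.0357 without EV replicate 3. Upstream of TRPM1, 75.5 kb from the gene and nearest to the start of the long non-coding RNA LINC03034, a peak had 528.1, 608.3 and 576.9 in EV and 720.8, 698.1 and 647.3 in HMGB2OE libraries, also without overlap. Its log2 fold change was 0.27 (standard error 0.0915, adjusted p = 0.0759 in edgeR), with an adjusted p of 0.0337 when scaled by library size only and 0.0116 with a loess trend removed. The other two lie in or past MITF: the peak from 69944837 had 0.41 (adjusted p = 0.0398) under the replicate block with GC-content offsets, and the peak from 69997613 had 0.76 (adjusted p = 0.045) without EV replicate 1.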
